A study of Homo sapiens with 19 samples.

Results

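V5 chromatin immunoprecipitation with sequencing (ChIP-seq) was compared between C4-2 cells carrying wild-type (WT) E2F1 that were left untreated and the same line given 50 uM GSK2879552 for 24 hours. GSK2879552 inhibits LSD1 (KDM1A), a histone lysine demethylase. C4-2 is an established prostate cancer line, and all groups here were grown in charcoal-stripped serum, which is low in androgens. The V5-tagged E2F1 is under tetracycline control, and neither group received doxycycline. Whether tagged protein was made without doxycycline is not given in the sources used here, so a V5 interval is described as an interval and not as bound E2F1. Each group had 2 libraries, but the authors deposited 1 list of intervals per group, so no value below has a replicate error and no p-value was computed. The members are all 17904 intervals of these lists, 15099 untreated and 2805 with GSK2879552, out of 203381 intervals in the 10 lists of the series. An untreated interval that met no GSK2879552 interval by at least 1 base is called lost, the converse gained, and the others shared. These words name list membership and nothing more.

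For reference, RB was mapped in untreated C4-2 cells (9146 intervals) and untreated VCaP cells (17026 intervals), VCaP being another prostate cancer line. The 6 other V5 lists come from WT cells with doxycycline (0.25 ug/ml for 3 days), with or without GSK2879552 afterwards, and from cells carrying the K185R form of E2F1 under all 4 treatments. K185R replaces a lysine by arginine. The names of the deposited lists say siNTC where the treatment labels say no doxycycline and siRB where they say doxycycline, and the treatment labels were followed.

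E2F1 is a transcription factor that binds near the starts of genes for DNA replication and cell division. RB, the product of the RB1 tumour suppressor gene, docks on E2F proteins and holds their targets in check until cyclin-dependent kinases phosphorylate it. LSD1 removes methyl groups from histone H3 and from other proteins, and it is best known as a subunit of corepressor complexes, with activating roles described in prostate cells. An RB site that recurs in both cell lines is therefore a useful landmark for asking where V5 intervals came and went.

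Depth differed between the lists and touches every count. The authors' fold and p-value fix the number of reads at each summit and its local background. The lowest common background, here called the floor, is the read number expected at any point of the genome: 0.195 reads in the untreated list and 0.139 with GSK2879552. This amounts to 1.21 and 0.716 reads per kilobase. To set summits of both lists on one scale, summit reads were divided by the floor of their list and are called scaled reads. An interval whose background was at least 10 times the floor is called high background. Such intervals numbered 601 untreated and 347 with GSK2879552.

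Most intervals were in one list only. Of the untreated intervals 14096 (93.4%) were lost and 1003 were shared, and of the GSK2879552 intervals 1805 (64.3%) were gained and 1000 were shared. The shared part was thus 6.64% of the untreated list (95% Wilson interval 6.26 to 7.05) and 35.7% of the GSK2879552 list (33.9 to 37.4). These intervals cover counting error over intervals only, which are not replicates, and PCR reads without molecular identifiers are not independent molecules. At −log10 q of at least 5 the lists were closer in length, 1471 untreated and 951 with GSK2879552, and the shared parts were 37.7% and 58.3%. Few intervals sat at the edge of the overlap rule. Only 51 lost intervals had a GSK2879552 summit within 500 bases and only 28 gained intervals an untreated one, while 12 of 972 one-to-one shared pairs overlapped by under 50 bases.

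Lost and gained intervals were both weak, and shared ones stronger. Lost intervals had a median of 5 summit reads and a median fold enrichment of 4.83, with 75.6% at 5 reads or fewer. Gained intervals also had a median of 5 reads, with a fold of 5.11 and 66.1% at 5 reads or fewer. Shared intervals had medians of 12 reads untreated and 11.5 with GSK2879552, and folds of 6.13 and 6.27. At least 10 reads were found at 465 lost intervals (3.30%) and 86 gained ones (4.76%), against 56.4% and 57.6% of the shared ones. High background, which comes with more reads, was found at 33.6% of the shared intervals in each list. In one-to-one shared pairs, untreated and with GSK2879552, the median was 55.5 and 40 reads at high background. At low background it was 8 reads in each, with median folds of 6.45 and 6.69.

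Sharing climbed steeply with strength within each list. Among the 10% of untreated intervals with the highest −log10 q, 674 of 1510 (44.6%) were shared, against 15 of 1510 (0.993%) in the lowest 10%. In the GSK2879552 list the shares were 278 of 281 (98.9%) in the highest 10% and 24 of 281 (8.54%) in the lowest. The top 10% with GSK2879552 therefore contained 3 gained intervals, while the top 10% untreated still contained more lost than shared ones. These top groups are unlike in size and in strength, with a lowest −log10 q of 11.3 with GSK2879552 and 4.91 untreated. With only the 1000 strongest of each list kept, 51% of each was shared.

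RB marked shared and gained intervals far more often than lost ones. A C4-2 RB interval was met by 685 of the 1003 shared untreated intervals (68.3%), by 401 of the 1805 gained (22.2%, Wilson interval 20.4 to 24.2) and by 548 of the 14096 lost (3.89%, 3.58 to 4.22). Over the whole lists the share was 8.17% untreated and 38.7% with GSK2879552. RB intervals of VCaP gave the same order, with 34.7% of shared untreated, 20% of gained and 2.26% of lost intervals, beside 4.42% and 25.2% over the whole lists. At −log10 q of at least 5 the C4-2 RB shares were 83.4% of 555 shared, 59.9% of 397 gained and 32.8% of 916 lost intervals. High background was rarest among gained intervals: 11 of 1805 (0.609%) had it, against 264 lost (1.87%) and 337 shared untreated intervals (33.6%).

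RB intervals were sorted by cell line to see which kind gained or lost V5. Without high-background V5 intervals, 278 of 1794 gained intervals (15.5%) lay at RB found in both cell lines, 119 (6.63%) at RB found in C4-2 alone and 80 (4.46%) at RB found in VCaP alone. Of 13832 lost intervals, 198 (1.43%), 183 (1.32%) and 77 (0.557%) did so in the same order. Gained intervals at C4-2 RB thus lay mostly at RB found in both lines, while the lost ones were split almost evenly.

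**Figure D1:**
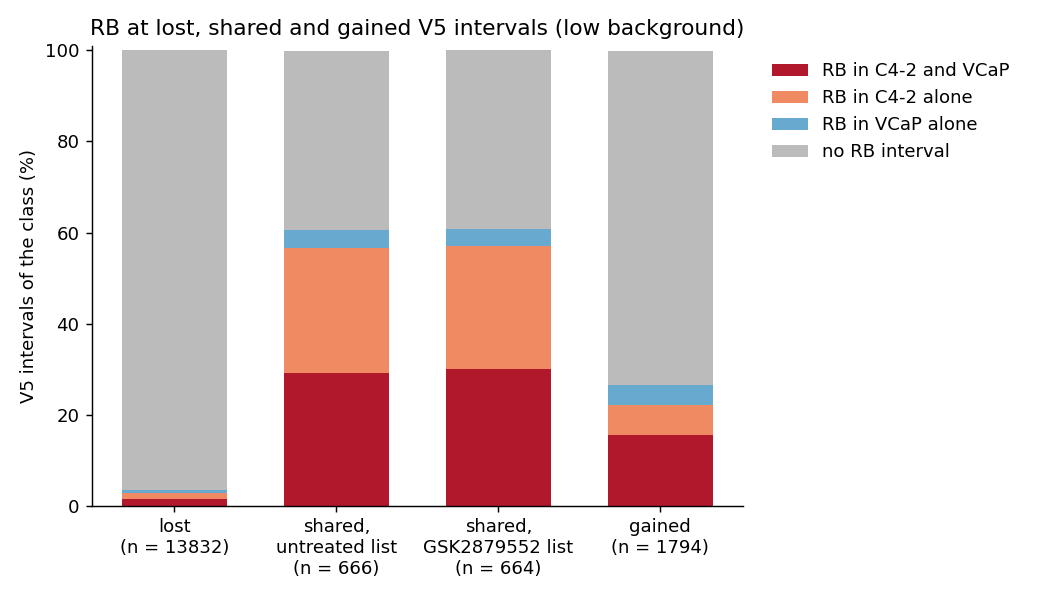
Stacked bars give the percentage of low-background V5 intervals in each class (lost, shared as listed untreated, shared as listed with GSK2879552, gained) that lie at RB of both cell lines, of C4-2 alone, of VCaP alone, or at no RB interval. RB of both lines makes up 15.5% of gained and 1.43% of lost intervals.

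From 40 to 80 scaled reads, a C4-2 RB site was met more often by gained than by lost intervals of like strength. The whole GSK2879552 list stood likewise above the whole untreated list, so this was not particular to gained intervals. At 40 to 50 scaled reads, 68 of 220 gained intervals (30.9%) were at a C4-2 RB site, against 47 of 371 lost ones (12.7%). At 50 to 60 scaled reads the shares were 52.4% of 248 and 29.7% of 91, and at 60 to 80 they were 67.6% of 108 and 44.6% of 65. Over all low-background GSK2879552 intervals the shares in these bins were 32.5%, 53.7% and 68.9%, close to those of the gained ones. Over all low-background untreated intervals they were 24.7%, 40.1% and 55.9%, above those of the lost ones. Above 80 scaled reads the classes had similar shares, 76% of 25 gained and 71.1% of 45 lost intervals, and their Wilson intervals overlapped. The kind of RB site differed there: 10 of these gained intervals and 2 of these lost ones lay at RB of both lines. Lost intervals above 80 scaled reads were thus mainly at RB seen in C4-2 and not in VCaP.

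**Figure D2:**
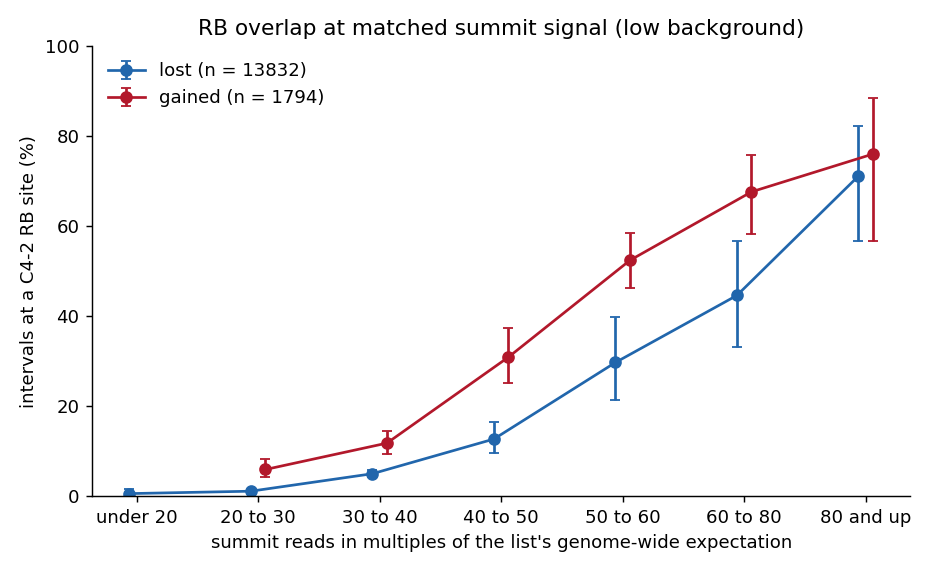
The percentage of low-background intervals at a C4-2 RB site is plotted against summit reads in multiples of the genome-wide expectation of the list, for lost (13832) and gained (1794) intervals. Points are shares and bars 95% Wilson intervals. Gained intervals lie above lost ones in each bin from 20 to 80, and the bars overlap above 80.

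Seen from the RB sites, the count with a V5 interval was higher with GSK2879552 at one kind of C4-2 site and lower at the other. Only RB sites of low background were used here, with all V5 intervals. Of all 8709 such sites in C4-2, 11.8% had a V5 interval untreated and 11.1% with GSK2879552, while 5.45% had one untreated alone and 4.73% with GSK2879552 alone. Among the 5233 sites also found in VCaP, 449 had a V5 interval untreated and 529 with GSK2879552, a ratio of 1.18. Among the 3476 sites found in C4-2 alone the numbers were 581 and 438, a ratio of 0.754. Sites with V5 in one list alone showed the contrast most plainly. At sites of both lines, 291 had V5 with GSK2879552 alone and 211 untreated alone, and at C4-2-only sites 121 and 264. The 11807 VCaP-only sites rarely met V5 in C4-2 cells, with 72 under GSK2879552 alone, 64 untreated alone and 26 in both. Keeping only the 1000 strongest intervals of each list raised the ratio at sites of both lines to 2.22. Low-background shared intervals, as listed untreated, were in all 6 other V5 lists for 39.9% at C4-2-only RB and 10.3% at RB of both lines. No filter for hard-to-map regions was applied to either kind of site, and the part of mapping in this contrast was not tested.

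**Figure D3:**
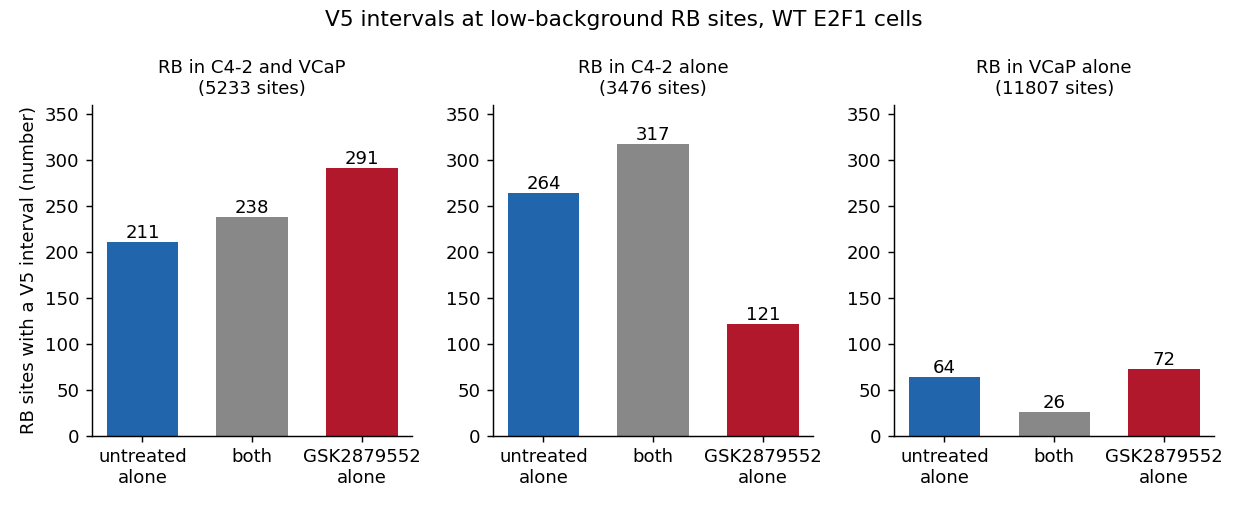
Bars count low-background RB sites with a V5 interval in untreated WT cells alone, in both lists, or with GSK2879552 alone, for RB of both cell lines, of C4-2 alone and of VCaP alone. The GSK2879552-alone bar is above the untreated-alone bar at sites of both lines (291 and 211) and below it at C4-2-only sites (121 and 264).

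RB strength was related to V5 in both lists. Sites of both lines were ranked by the C4-2 RB fold and divided into 5 groups of equal size. From the weakest to the strongest group, V5 was present untreated at 3.82%, 5.54%, 5.64%, 9.75% and 18.1% of sites and with GSK2879552 at 4.87%, 7.74%, 7.45%, 11% and 19.5%. The GSK2879552 share was the higher one in each group, although the Wilson intervals of the 2 lists overlapped in each. At C4-2-only sites the strongest of 5 such groups held most of the V5 intervals, with 335 of 695 sites (48.2%, 44.5 to 51.9) untreated and 244 of 695 (35.1%, 31.7 to 38.7) with GSK2879552. In the next-to-weakest group of those sites the order turned, with 41 and 48 sites.

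At C4-2 RB sites the median RB fold was highest where V5 was in both lists. At sites of both lines the median RB fold was 7.65 with V5 in both lists, 6.71 with V5 untreated alone, 6.53 with V5 under GSK2879552 alone and 5.86 without V5. At C4-2-only sites these medians were 7.98, 6.62, 5.86 and 5.34. At VCaP-only sites the order of the VCaP RB folds differed, with 5.82 for V5 in both lists, 6.06 untreated alone, 5.51 with GSK2879552 alone and 5.22 without V5. RB intervals of both lines were also wider, with a median of 217 bases where V5 came with GSK2879552 alone, against 157 bases at C4-2-only sites. Low-background gained intervals had their summit a median of 51.5 bases from the RB summit at sites of both lines, and 77.7% lay within 100 bases. Lost intervals lay 42 bases away at sites of both lines and 24 bases at C4-2-only sites.

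Among shared intervals at low background, the median scaled reads ratio of GSK2879552 to untreated was higher at RB found in VCaP, with or without C4-2, than at C4-2-only RB or without RB. In 193 one-to-one pairs at RB of both lines, the median was 8 reads untreated and 9 with GSK2879552, although the second list was shallower. In scaled reads the medians were 41.0 and 64.8, and the median log2 ratio was 0.71 (quartiles 0.37 and 1.07), with the higher value under GSK2879552 in 175 of 193 pairs. At C4-2-only RB the median log2 ratio was 0.27 (−0.15 and 0.86; 114 of 174 pairs). Where there was no RB interval it was 0.30 (0.06 and 0.68; 202 of 258 pairs). The 27 pairs at VCaP-only RB also had a median of 0.71, with the higher value under GSK2879552 in 25. Equal read numbers in both lists give a log2 ratio of 0.489 on this scale. The median deposited folds, untreated and with GSK2879552, were 6.33 and 7.30 at RB of both lines and 5.05 and 6.63 at VCaP-only RB. At C4-2-only RB they were 7.53 and 7.24, and without RB 5.86 and 5.80. High-background pairs had a median of 0.09 over 320 pairs, with 0.17 at RB of both lines (78 of 108 pairs higher with GSK2879552) and 0.05 at C4-2-only RB (108 of 184). Both members of a pair had to pass the authors' threshold, whose setting is not stated in these sources. The lowest −log10 p found was 4.30 in the GSK2879552 list and 3.83 in the untreated list. The part of this gap in the ratios was not tested.

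**Figure D4:**
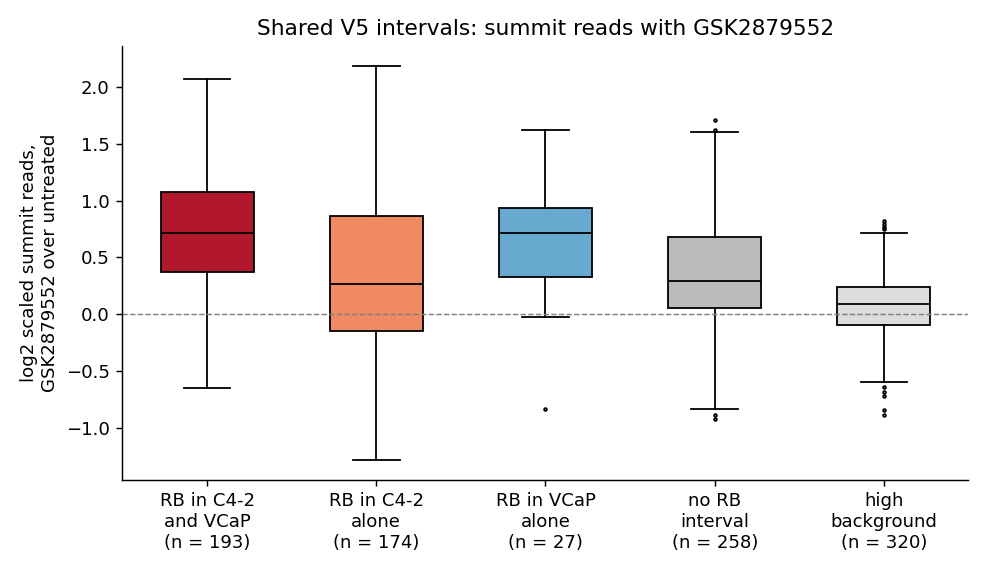
Boxes show the log2 ratio of scaled summit reads, GSK2879552 over untreated, for one-to-one shared pairs at low background by RB class and for all high-background pairs. Boxes span the quartiles with the median as a line, whiskers reach 1.5 times the box height, and dots are pairs beyond. The medians are 0.71 at RB of both lines, 0.27 at C4-2-only RB, 0.30 without RB and 0.09 at high background.

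The 6 other V5 lists, which played no part in naming an interval lost or gained, separated the RB classes. Of the 278 gained intervals at RB of both lines, 103 (37.1%) recurred in WT cells with doxycycline plus GSK2879552 and 34 (12.2%) with doxycycline alone. In K185R cells 17 (6.12%) recurred untreated, 22 (7.91%) with GSK2879552, 5 (1.8%) with doxycycline and 1 (0.36%) with both. The list of WT cells with both agents held 3874 intervals and that of untreated K185R cells 55681, and the shortest of the 6, K185R with both agents, held 3498. The part of list length in these shares was not tested. The 198 lost intervals at RB of both lines had much the same profile, with 37.9% recurring in WT cells with both agents, 19.2% with doxycycline and 8.59% in untreated K185R cells. Of all 477 low-background GSK2879552 intervals at RB of both lines, 50.5% recurred in WT cells with both agents, 23.5% with doxycycline and 18% in untreated K185R cells. Of the 392 untreated ones there, 54.1%, 29.3% and 21.4% did so. The whole-list shares that follow include high-background intervals, unlike these. Over all GSK2879552 intervals, 32.3% recurred in WT cells with both agents, 38.4% in WT cells with doxycycline and 36.8% in untreated K185R cells. Over all untreated intervals the values were 7.97%, 25% and 23.2%. In the other K185R lists the shares over all GSK2879552 intervals were 26.5% with GSK2879552, 27.8% with doxycycline and 19.4% with both, and over all untreated intervals 9.34%, 13.4% and 5.64%.

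At C4-2-only RB, V5 intervals recurred in K185R lists as well. Of the 183 lost intervals there, 49.7% were in untreated K185R cells, 44.3% in WT cells with doxycycline and 38.8% in WT cells with both agents. Of the 119 gained ones 17.6%, 26.9% and 29.4% recurred in those lists. Of the 183 shared ones, as listed untreated, 73 (39.9%) were in all 6 other lists, against 20 of 194 (10.3%) at RB of both lines. Without RB, lost and gained intervals had close shares in WT cells with doxycycline and in untreated K185R cells, and gained ones recurred more often in WT cells with both agents. Of 13374 lost ones 62% were in none of the 6 lists, 20.2% in WT cells with doxycycline and 18.3% in untreated K185R cells, and of 1317 gained ones 58.4%, 20.5% and 19.7%. In WT cells with both agents, 1.93% of the lost ones recurred (Wilson interval 1.71 to 2.18) and 3.49% of the gained ones (2.63 to 4.63). For presence in none of the 6 lists the Wilson intervals were 61.2 to 62.9 and 55.7 to 61.0. They cover counting over intervals, which are not replicates, and the difference between lost and gained was not tested.

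**Figure D5:**
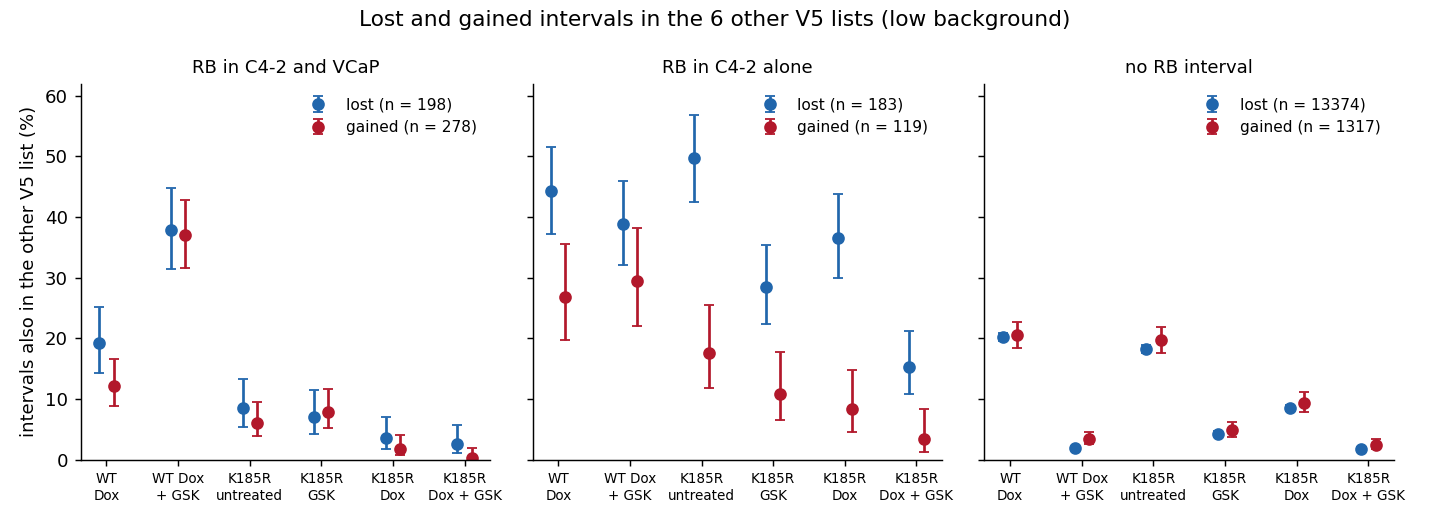
Points give the percentage of low-background lost and gained intervals that overlap an interval of each of the 6 other V5 lists, at RB of both cell lines, at C4-2-only RB and without RB, with 95% Wilson intervals as bars. Dox is doxycycline and GSK is GSK2879552. At RB of both lines the highest values are in WT cells with both agents (37.9% lost, 37.1% gained), and without RB they are in WT cells with doxycycline (20.2% and 20.5%).

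The same contrast was available in WT cells on doxycycline, from other libraries. At RB sites of both lines, V5 was present at 245 without and 604 with GSK2879552, a ratio of 2.47, and at C4-2-only sites at 561 and 459, a ratio of 0.818. In K185R cells without doxycycline, sites of both lines had V5 at 173 and 175, a ratio of 1.01, and C4-2-only sites at 571 and 418, a ratio of 0.732. In K185R cells on doxycycline the count was lower with GSK2879552 at both kinds, with 105 and 76 at sites of both lines, a ratio of 0.724, and 427 and 282 at C4-2-only sites, a ratio of 0.660. The ratio at sites of both lines was thus above 1 in both WT pairs, near 1 in 1 K185R pair and below 1 in the other. The lists without and with GSK2879552 held 64025 and 3874 intervals in WT cells on doxycycline. In K185R cells they held 55681 and 9899 without doxycycline, and 22328 and 3498 with it. The part of list length in these ratios was not tested. The difference between WT and K185R was not tested either, with 1 list per group.

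The long tail of untreated intervals away from RB was thinner with GSK2879552 on every autosome and X. Low-background intervals without RB numbered 13636 untreated and 1578 with GSK2879552, a ratio of 0.116. Over the 23 chromosomes with at least 100 untreated ones, the ratio ran from 0.0828 on chromosome 15 to 0.154 on chromosome 22, with a median of 0.117. These intervals rested on a median of 5 reads in each list, and the GSK2879552 list was the shallower one. With the reads and backgrounds of the whole untreated list multiplied by 0.712, its floor became that of the GSK2879552 list. After this, 13009 of its 15099 intervals still reached the lowest −log10 p of the GSK2879552 list. In proportion, the depths of 1.21 and 0.716 reads per kilobase lay further apart than the floors, so depth was matched only in part. How sampling of so few reads adds to the loss was not tested.

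Single regions show the classes. All coordinates are hg19, from the authors' intervals, and genes at these positions were not analysed here. Within each class the 10 low-background intervals of highest fold were taken. The strongest gained interval was chr7:122526580-122526908, with a fold of 10.7 and 14 reads. It lay at RB of both lines (fold 6.35 in C4-2, 5.49 in VCaP), and the one other V5 list to hold it was WT with both agents. The gained interval chr7:73668592-73668850 had 14 reads and sat on strong RB, with a fold of 17.5 and 55 reads in C4-2 and 15.8 and 58 reads in VCaP. It too recurred in WT cells with both agents alone. So did chr2:27255684-27255937, with 11 reads and RB folds of 7.11 and 7.31. The gained intervals chr11:64808348-64808599, with 14 reads, and chr4:37688045-37688365, with 13, were the other members at RB of both lines. In all, 5 of the 10 strongest gained intervals lay at RB of both lines and 8 recurred in WT cells with both agents, but only 2 in untreated K185R cells.

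The strongest lost intervals had a partly different profile. None of the 10 lay at RB of both lines and 4 lay at C4-2-only RB. Of the 10, 9 recurred in untreated K185R cells, 9 in WT cells with doxycycline and 6 in WT cells with both agents. These lists held 55681, 64025 and 3874 intervals, and the part of list length in the counts was not tested. The first of the lost intervals was chr17:79242180-79242444, with a fold of 10.9 and 14 reads, without RB and present in 4 other V5 lists. The interval chr16:50816903-50817175 had 13 reads at a C4-2-only RB site of fold 7.46. The interval chr3:90498829-90499099 had 25 reads, the most among these 10, on a background 7.76 times the floor, and 5 other V5 lists held it. The interval chr2:135676248-135676468, with 14 reads at a VCaP-only RB site, was in neither untreated K185R cells nor WT cells with doxycycline. The one other V5 list to hold it was WT with both agents. Of the 10, 3 lay on chromosome Y.

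The strongest shared intervals were common to all V5 lists, K185R included. The 10 of highest untreated fold had folds of 19.1 to 30.9, and each was present in all 6 other V5 lists. All 10 lay at C4-2 RB, 9 of them at sites absent from the VCaP list, and 6 were on chromosome 9. No filter for hard-to-map regions was applied here in any class, and mapping at these positions was not examined. Presence in every list is thus a count of lists and not a measure of binding. The interval chr9:44070579-44070896 had 88 reads untreated and 68 with GSK2879552, at an RB site of fold 35.8 in C4-2 and 13.8 in VCaP. The interval chr9:78790015-78790297 had 37 and 29 reads at a C4-2-only RB site of fold 18.3. Ranked by the GSK2879552 fold instead, chr12:13153083-13153412 entered the group. It lay at RB of both lines and had 11 reads untreated and 27 with GSK2879552, the reverse of the depth order.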

How the data were processed

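Per the submitters' processing notes, the build was hg19 and the tools included MACS2 2.1.0, with SAMtools 1.2, BWA 0.7.9a and FastQC 0.11.9 also named. Settings, duplicate removal and any input control are not stated in these sources. The V5 interval names say that libraries were merged, while the C4-2 RB names carry 1 library. The deposited columns used were start, end and summit, the fold enrichment (a linear ratio made by the authors), and the p-value and q-value that the authors deposited on the −log10 scale. These describe intervals within a list.

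Whole summit reads and local background were solved from fold and −log10 p, with recomputed −log10 p within 0.0003 of the deposited value, and the solver and the overlap counts were tested on simulated data. Overlaps, 95% Wilson intervals and medians were computed in Python 3.11.15 with scipy 1.17.1 and pandas 2.3.3. The floor had to be shared by at least 5 intervals. Named regions are the 10 of highest fold in each class at low background. Promoter shares and the gene lists were planned but not computed, because the gene table used here is on GRCh38, and no sequence of these intervals was read. The members and lists were chosen with earlier results of these data known, and the split of RB sites by cell line was chosen after seeing the data. Alternatives were a stricter q, 2 other overlap rules, equal list length, low background and matched floor.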

Additional observations from a re-analysis of the deposited data

Results flagged for a closer look

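At RB sites found in VCaP alone, the ratio of sites with a V5 interval with GSK2879552 to sites without was above 1 in both WT pairs, 1.09 without doxycycline and 1.92 with it, and below 1 in both K185R pairs, 0.549 and 0.222. Opposite directions in the E2F1 forms brought this result here, and the difference was not tested. The counts behind the ratios were 90 and 98, 71 and 136, 51 and 28, and 18 and 4, out of 11807 sites. In the WT pair without doxycycline the Wilson intervals overlapped, at 0.621 to 0.936% and 0.682 to 1.01% of sites. Those of the K185R pair without doxycycline overlapped as well, at 0.329 to 0.567% and 0.164 to 0.343%. In the pairs on doxycycline they did not overlap. Such Wilson intervals cover counting over sites only, which are not replicates, so their overlap or its absence is not a test between groups.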

How the results depend on the processing

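No result reversed under the alternatives run. Gained intervals lay at C4-2 RB more often than lost ones. The ratio of RB sites with V5 stayed above 1 at sites of both lines and below 1 at C4-2-only sites. The GSK2879552 list was the shorter under the stricter q, low background and matched floor, where list length was recomputed. The overlap rules leave list length as it is, and keeping the 1000 strongest makes it equal. Of 45 recomputed values, 27 moved beyond their counting interval (ratios, by over 1.5 times), and why they moved was not tested. A threshold of 5 on −log10 q gave a ratio of list lengths of 0.646, a shared part of 58.3% of the GSK2879552 list and 37.7% of the untreated one, and C4-2 RB shares of 83.4% of shared, 32.8% of lost and 59.9% of gained intervals. With the 1000 strongest of each list, 51% was shared, the RB shares were 85.3%, 46.5% and 59%, and the ratio at RB sites of both lines was 2.22. Requiring 50% of both intervals gave shared parts of 31.4% and 5.84% and RB shares of 55.9%, 2.79% and 15.2%. Summits within 100 bases gave 31.1% and 5.77%, with RB shares of 63.7% (shared) and 17.9% (gained). Without high background the shared parts were 26.9% and 4.55%, with RB shares of 56.1% (shared) and 2.8% (lost). With untreated reads scaled to the floor of the GSK2879552 list, 7.53% of the untreated list was shared and 4.4% of lost intervals lay at RB. The 6 alternatives at RB sites split by cell line were chosen after seeing the data. No paired analysis was possible because each deposited list holds a whole group, and for the same reason no library could be left out. Promoter alternatives were not run. Summits of 5 reads limit what most single lost or gained intervals can show.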
